A study of Danio rerio with 8 samples.

Results

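The genes for the chains of the fibrillar collagens I and V were examined in RNA sequencing libraries from sorted cells of the adult zebrafish heart ventricle. The 6 genes are col1a1a, col1a1b and col1a2 for collagen I and col5a1, col5a2a and col5a2b for collagen V. They were found by symbol among 31388 gene identifiers, and each matched 1 identifier: col1a1a ENSDARG00000012405, col1a1b ENSDARG00000035809, col1a2 ENSDARG00000020007, col5a1 ENSDARG00000012593, col5a2a ENSDARG00000031678 and col5a2b ENSDARG00000024847. The identifier of col1a1b is listed as COL1A1 and was matched without the paralog letter, as col1a1a has an identifier of its own. The identifier of col5a2a is listed as COL5A2, a RefSeq synonym of col5a2a.

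All libraries came from untreated fish aged 3 to 9 months that carry Tg(-6.8wt1a:EGFP), a transgene in which sequence upstream of wt1a drives green fluorescent protein (GFP). The GFP-negative cells came from the same transgenic hearts as the GFP-positive cells. Each of 4 numbered pools of 3 to 5 ventricles gave 1 library sorted as GFP-positive and 1 as GFP-negative, which makes 8 libraries and 4 per labelled sort. The comparison asks how reporter-marked cells differ from the other ventricular cells; the wt1a protein is a zinc finger transcription factor known from the epicardium, which covers the heart. The protocol text also speaks of mCherry-positive cells from the ventricular apex, which the titles do not mention.

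Collagen I is the main fibril-forming collagen of connective tissue, and in mammals its procollagen chains fold into a triple helix in which alpha1 chains outnumber alpha2 chains. In zebrafish a pair of paralogs, col1a1a and col1a1b, corresponds to the mammalian alpha1 gene. Both are called alpha1 here by that homology alone. Their products may take separate places in the helix, so their summed transcripts give no chain composition. Collagen V is a minor fibrillar collagen, built from alpha1 and alpha2 chains encoded by col5a1 and the col5a2 paralogs; in mice it is needed to start collagen I fibrils and limits their width. In the heart, fibroblasts and cells derived from the epicardium are the known main sources of both collagens.

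The values are TPM, an abundance corrected for transcript length and for the library's total, by which levels of different genes were set side by side within a library. Uneven amplification or incomplete transcript models could still shift a gene against another, and this was not measured. The sequencing depth is unknown. The labels were not borne out by the reporter's gene: wt1a (listed as WT1) stood at 1.15 to 2.59 TPM in both sorts of pools 1 and 2, against 39.51 to 106.82 in both sorts of pools 3 and 4, with the higher value in the positive-labelled library in pool 2 alone. They are therefore called positive-labelled and negative-labelled libraries, and values are given by labelled sort and by pool. The 50 most abundant identifiers took 74.4% to 80.5% of the TPM in pools 1 and 2, against 45.2% to 66.3% in pools 3 and 4. For tests the libraries were rescaled, and values named "scaled" are TPM after that step.

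The collagen I genes were low in both libraries of pools 1 and 2 and high in both libraries of pools 3 and 4. For col1a1a, TPM in the negative-labelled libraries were 48.15, 64.29, 1813.64 and 547.99 in pools 1 to 4, and in the positive-labelled ones 68.96, 52.70, 987.16 and 859.63. Its highest value was in the negative-labelled library of pool 3, and every value of pools 3 and 4 exceeded every value of pools 1 and 2. In TPM as deposited, 33.4% of the 13877 genes tested (at least 1 TPM in at least 4 libraries) showed that arrangement. The same share is the background for the genes below. In rank by TPM within a library, col1a1a took places 487 to 731 in pools 1 and 2, against places 85 to 166 in pools 3 and 4.

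For col1a1b, TPM were 15.69, 29.81, 1119.36 and 533.37 in the negative-labelled libraries of pools 1 to 4 and 49.08, 42.12, 861.77 and 764.34 in the positive-labelled ones. For col1a2, which encodes the alpha2 chain, they were 10.37, 14.54, 394.10 and 202.40 in the negative-labelled libraries and 28.08, 20.61, 378.77 and 321.15 in the positive-labelled ones. For both genes the negative-labelled library of pool 1 was the lowest of the 8 and that of pool 3 the highest. The pairs of pools did not overlap, while the labelled sorts overlapped fully.

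Among the collagen V genes, col5a1, which encodes the alpha1 chain, had 13.13, 22.72, 428.79 and 228.15 TPM in the negative-labelled libraries of pools 1 to 4 and 26.78, 23.34, 474.06 and 297.63 in the positive-labelled ones. The value in the positive-labelled library was the higher of the pair in each pool, by little in pool 2. For col5a2a, which encodes an alpha2 chain, TPM were 28.84, 52.24, 259.86 and 172.23 in the negative-labelled libraries and 35.70, 43.88, 324.88 and 252.47 in the positive-labelled ones. Here too the pairs of pools did not overlap, but the gap between them was smaller than for the other 4 genes: mean TPM in pools 3 and 4 was 6.28 times that in pools 1 and 2 for col5a2a, against 16.6 times for col5a1, 17.6 for col1a2, 17.98 for col1a1a and 24.0 for col1a1b. Those folds are in TPM as deposited and shrink with scaling. After scaling, the folds from mean log2 values were 2.94 for col5a2a, 7.58 for col5a1, 8.32 for col1a2, 7.75 for col1a1a and 11.7 for col1a1b.

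The paralog col5a2b was listed at 0 in 7 of 8 libraries and at 0.59 TPM in the positive-labelled library of pool 3. It did not pass the filter on low values (at least 1 TPM in at least 4 libraries) and was not tested. In 7 libraries the alpha2 chain of collagen V was thus represented by col5a2a transcripts alone, as far as the values show.

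**Figure D1:**
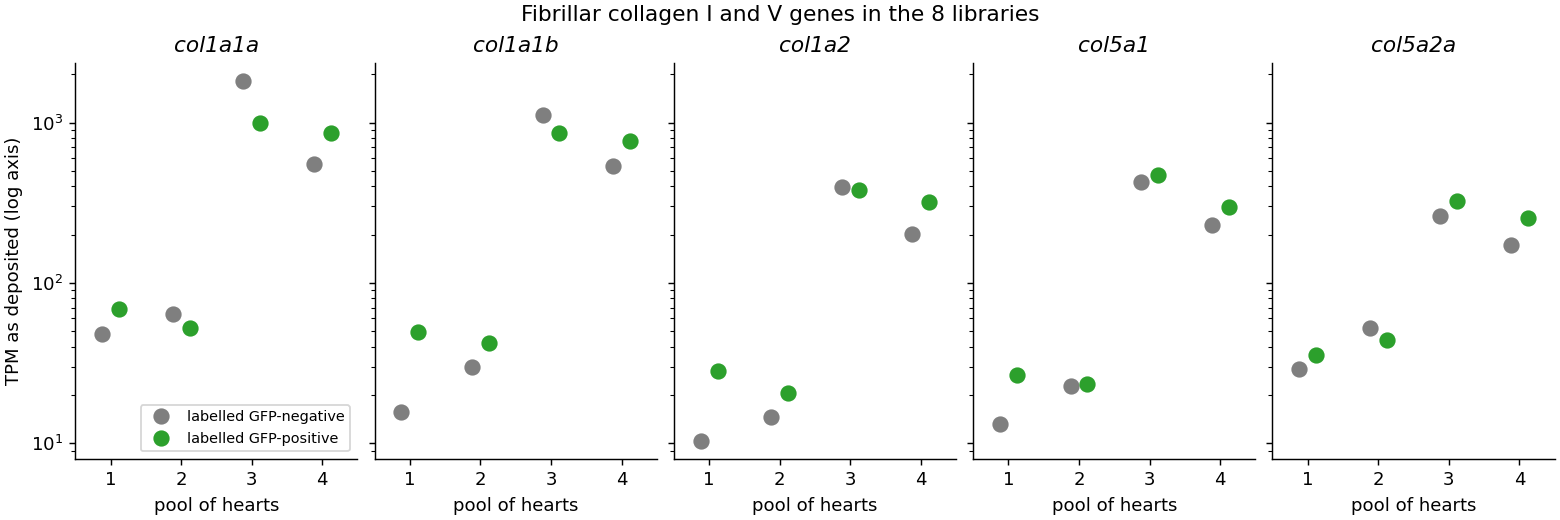
TPM as deposited (log axis) of the 5 collagen genes that passed the filter, by pool of hearts on the horizontal axis; each point is 1 library, grey labelled GFP-negative and green labelled GFP-positive. In each panel all 4 libraries of pools 3 and 4 lie above all 4 of pools 1 and 2, and the smallest gap is that of col5a2a. In TPM as deposited, 33.4% of all genes tested separate in this way.

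The order of the chains by TPM was partly the same in every library. In 8 of 8 libraries col1a1a was the highest of the 6 genes, and col1a1b exceeded col1a2 and col5a1. The place of col5a2a changed with the pool. It exceeded col5a1 and col1a2 in 4 of 4 libraries of pools 1 and 2 and lay below both in 4 of 4 libraries of pools 3 and 4. Against col1a1b, col5a2a was the higher in 3 of 4 libraries of pools 1 and 2 and the lower in all 4 of pools 3 and 4. The neighbours col1a2 and col5a1 were not separated beyond their spread, with col1a2 higher in 2 libraries, the positive-labelled ones of pools 1 and 4, and lower in 6.

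Together the 6 genes took 0.0116% to 0.0209% of a library's TPM in pools 1 and 2, against 0.168% to 0.402% in pools 3 and 4. Within that sum, col1a1a held 28.9% to 41.4% in pools 1 and 2, against 32.5% to 45.2% in pools 3 and 4, ranges that overlap. The share of col1a1b was 13.5% to 23.5% in the first pair of pools and 27.9% to 31.7% in the second, and that of col5a2a was 17.1% to 28.5% and 6.47% to 10.7%. Neither share overlapped between the pairs of pools, and they differed in opposite directions. The shares of col1a2 (7.92% to 13.5% and 9.81% to 12.9%) and of col5a1 (11.3% to 12.8% and 10.7% to 15.7%) did overlap. How often shares of other genes separate the pairs of pools was not counted, so these separations are descriptions.

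Between the labelled sorts, none of the 5 tested genes passed the threshold, which was a Benjamini-Hochberg adjusted p under 0.05 over all 13877 genes tested by limma with pool as a block. Over all these genes limma called 0 (0% of those tested), with 770 at an unadjusted p under 0.05. In data simulated around this fit, limma called 8.6% of the genes given a log2 change of 1 between the sorts. Differences of that size or less can therefore go uncalled. The estimates for the 5 genes all lay on the side of the positive-labelled libraries, with a median log2 difference of 0.53 beside 0.01 over all genes tested, on the scale of log2(scaled TPM + 1), which understates the change of low genes. With pool means removed, pairs of the 5 genes correlated with r of 0.280 to 0.979, so their estimates are not separate observations.

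The estimate furthest from 0 was that of col1a2, at 0.76 (SE 0.24; the 95% confidence interval ran from 0.20 to 1.32; limma adjusted p = 0.853). Its mean TPM was 187 ± 189 (SD, n = 4) in the positive-labelled libraries and 155 ± 183 (SD, n = 4) in the negative-labelled ones. The scaled value was higher in the positive-labelled library in 4 of 4 pools, as was that of col5a1, at 0.53 (SE 0.20, interval 0.06 to 1.01; limma adjusted p = 0.853). Such agreement of 4 pools in this direction was seen in 7.15% of all genes tested. In TPM as deposited it held in 4 of 4 pools for col5a1 and in 3 of 4 for col1a2, where pool 3 had 378.77 against 394.10.

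For col1a1b the log2 difference was 0.71 (SE 0.29, interval 0.03 to 1.38; limma adjusted p = 0.853), with 1.73 in pool 1, 0.73 in pool 2, -0.16 in pool 3 and 0.52 in pool 4. For col5a2a it was 0.38 (SE 0.18, interval -0.04 to 0.79; limma adjusted p = 0.853), between -0.01 in pool 2 and 0.55 in pool 4. For col1a1a it was 0.15 (SE 0.25, interval -0.43 to 0.73; limma adjusted p = 0.944), with 0.64, -0.04, -0.66 and 0.65 in pools 1 to 4. The sign for col1a1a thus differed between pools, and the mean difference turned to -0.032 without pool 1, to -0.047 without pool 4 and to -0.00021 with the TPM as deposited. Without pool 1 the estimate for col1a1b fell to 0.35 and that for col5a1 to 0.33. For col1a2 that estimate was 0.50.

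**Figure D2:**
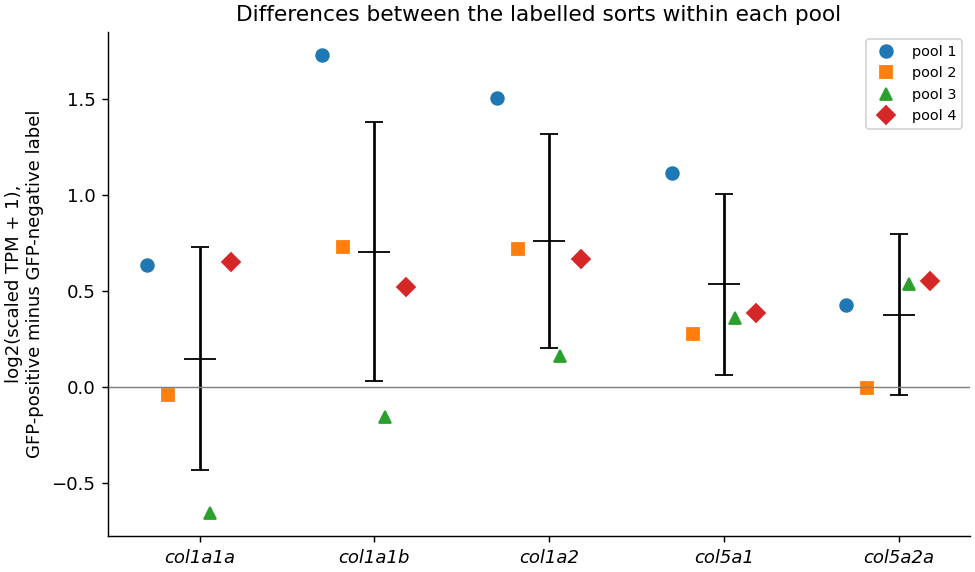
Differences on the scale of log2(scaled TPM + 1), positive-labelled library minus negative-labelled library, for 5 collagen genes; symbols are the 4 pools, and the black dash and bar are limma's estimate with its 95% confidence interval. The intervals of col1a1b, col1a2 and col5a1 lie above 0 before adjustment, none passes the threshold after it, and pool 1 has the highest value for col1a1b, col1a2 and col5a1.

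Among the 4 pools, all 5 tested genes passed the threshold in limma's F test. This test called 12.9% of all genes tested, and 4.55% of all genes were called with their highest pool means in pools 3 and 4, as these 5 genes were. The spread behind this test is that between the 2 libraries of a pool, which by the stated pairing share their hearts, so these p-values say nothing of how far other sets of hearts would differ. In bulk libraries, fewer cells that express a gene and less RNA of it per cell cannot be told apart.

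On the log2 scale, pools 3 and 4 exceeded pools 1 and 2 by 3.55 for col1a1b, 3.06 for col1a2, 2.95 for col1a1a, 2.92 for col5a1 and 1.55 for col5a2a. The adjusted p of the F test was 0.00170 for col1a1b, 0.00149 for col1a2, 0.00178 for col1a1a, 0.00112 for col5a1 and 0.00558 for col5a2a. Of 13877 genes, 44 had a difference above that of col1a1b and 823 above that of col5a2a. The median of the 5 genes was 2.95, beside -0.03 over all genes tested. In scaled TPM the pairs of pools did not overlap for any of the 5, an arrangement seen in 12.1% of all genes after scaling and in 33.4% in the TPM as deposited. With the TPM as deposited the median of all genes moved to 0.80, and relative to that median the 5 genes differed by 1.82 to 3.81.

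Each gene was called in all 4 contrasts between a pool of the first pair and a pool of the second. The share of all genes called higher in these contrasts was 4.64% for pool 3 against 1, 4.16% for pool 4 against 1, 5.18% for pool 3 against 2 and 4.84% for pool 4 against 2. Log2 differences ran from 3.46 to 3.64 for col1a1b, from 2.91 to 3.20 for col1a2, from 2.62 to 3.29 for col1a1a, from 2.77 to 3.07 for col5a1 and from 1.37 to 1.74 for col5a2a (limma adjusted p from 0.00105 to 0.0117). Between pools 2 and 1 and between pools 4 and 3 limma called 0% of all genes (375 and 1186 genes at an unadjusted p under 0.05), and the log2 differences of the 5 genes lay within -0.43 to 0.32. The call for col5a2a was lost with a prior variance without a trend (adjusted p = 0.0513), and the other 4 calls held under every alternative run.

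Ratios between chains do not depend on how libraries are scaled. How often ratios between other genes separate the labelled sorts or the pairs of pools was not counted, so the separations below are descriptions. The summed alpha1 transcripts of collagen I, col1a1a plus col1a1b, stood to col1a2 as 6.16, 6.47, 7.44 and 5.34 in the negative-labelled libraries of pools 1 to 4, and as 4.20, 4.60, 4.88 and 5.06 in the positive-labelled ones. The ratio of these summed transcripts to col1a2 was larger in the negative-labelled library of each pool, and the labelled sorts did not overlap, while the pairs of pools did. The log2 ratio of col1a2 to the alpha1 chains was higher in the positive-labelled libraries by 0.43 ± 0.24 (SD of 4 paired differences; exact permutation test within pools, two-sided, p = 0.13, the smallest that 4 pairs allow, and 0.500 adjusted over 4 ratios), so it does not pass a threshold that this design could not reach. In pool 4 the ratios differed little, 5.34 against 5.06.

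Taken apart, the alpha1 paralogs behaved differently. The ratio of col1a1a to col1a2 was 2.46, 2.56, 2.61 and 2.68 in the positive-labelled libraries of pools 1 to 4, a spread of 0.0928 (SD, n = 4) around a mean of 2.57, across libraries whose col1a2 levels ran from 20.61 to 378.77 TPM. It was 4.64, 4.42 and 4.60 in the negative-labelled libraries of pools 1 to 3 and 2.71 in that of pool 4. The ratio of col1a1b to col1a2 instead followed the pools, with 1.51 to 2.05 across pools 1 and 2, against 2.28 to 2.84 across pools 3 and 4. These ratios of single paralogs were added after the values were seen and were not tested. Reads shared by the paralogs could have been divided between them in the authors' quantification, which affects each paralog more than their sum.

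Between the paralogs, col1a1b stood to col1a1a as 0.326, 0.464, 0.617 and 0.973 in the negative-labelled libraries of pools 1 to 4 and as 0.712, 0.799, 0.873 and 0.889 in the positive-labelled ones. The positive-labelled libraries were higher in pools 1 to 3 and lower in pool 4. The log2 difference was 0.57 ± 0.53 (SD of 4 paired differences; exact permutation test within pools, two-sided, p = 0.250, adjusted 0.500).

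In collagen V the order of the chains turned over between the pairs of pools. The ratio of col5a2 transcripts, nearly all of them col5a2a, to col5a1 was 2.2, 1.33, 2.30 and 1.88 in the libraries of pools 1 and 2, in the order GFP-negative then GFP-positive label within each pool, and 0.606, 0.687, 0.755 and 0.848 in those of pools 3 and 4. All 4 of the former were above 1 and all 4 of the latter below it. Between the labelled sorts the log2 ratio differed by -0.17 ± 0.43 (SD of 4 paired differences; exact permutation test within pools, two-sided, p = 0.625, adjusted 0.833), higher in the positive-labelled library in 2 of 4 pools.

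Collagen V transcripts, here those of col5a1, col5a2a and col5a2b, were set against collagen I transcripts. The ratios were 0.566, 0.428, 0.690 and 0.582 in the libraries of pools 1 and 2, in the same order. They were 0.207, 0.359, 0.312 and 0.283 in those of pools 3 and 4. The sum leaves out col5a3a, the gene of a further collagen V chain. Its TPM ran from 0.77 to 3.45 across the first pair of pools, against 35.85 to 110.84 across the second. A ratio that includes col5a3a was not tested. Without col5a3a, the ratios did not overlap between the pairs of pools, with the smaller proportion of collagen V where both collagens were high. This did not hold for each collagen V gene. As a share of the summed collagen I and V genes, col5a1 overlapped (11.3% to 12.8% for the first pair, 10.7% to 15.7% for the second). The share of col5a2a was lower for the second pair without overlap. Between the labelled sorts the log2 ratio differed by 0.00 ± 0.54 (SD of 4 paired differences; exact permutation test within pools, two-sided, p = 1), as a higher value in pool 3 stood against lower ones in the other 3 pools.

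**Figure D3:**
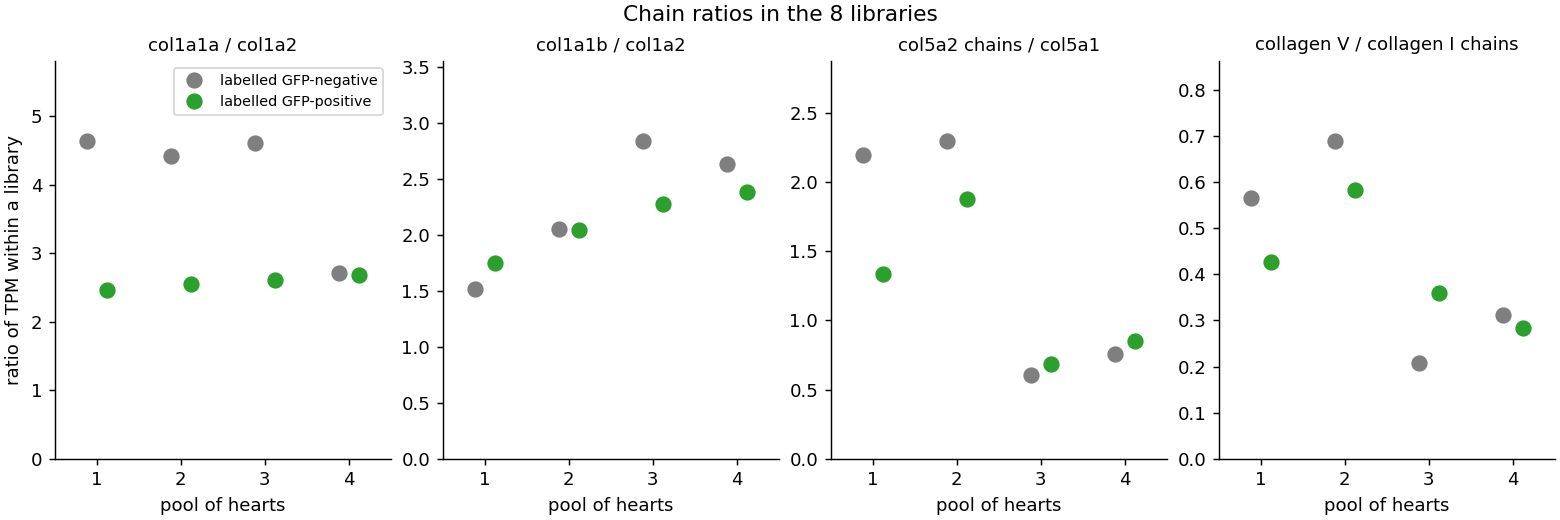
Ratios of TPM within each library by pool of hearts, grey labelled GFP-negative and green labelled GFP-positive. The ratio of col1a1a to col1a2 is 2.46 to 2.68 in the positive-labelled libraries and 4.42 or more in 3 of the negative-labelled ones, whereas the other 3 ratios separate pools 1 and 2 from pools 3 and 4.

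Among the other fibrillar collagens, of 9 identifiers 4 passed the filter and 3 were called among the pools, all 3 higher in pools 3 and 4, beside 4.73% of all genes tested that were called with a higher mean there. The same share is the background for genes called higher there in the lists that follow. For genes called lower there it is 1131 of 13877 genes tested. A gene that reached the filter's 1 TPM almost only in the pools where it was high had to differ, and such calls are named as they come and given as descriptions. The gene col5a3a, which encodes a further collagen V chain, had 0.77 to 3.45 TPM in pools 1 and 2, against 35.85 to 110.84 in pools 3 and 4, a log2 difference of 3.78 (limma adjusted p = 0.00123). The gene col27a1b had 1.09 to 1.89 and 24.44 to 44.35 TPM, and COL11A2, encoding a collagen XI chain, 0.02 to 0.43 and 2.79 to 13.21. COL11A2 passed the filter only through pools 3 and 4, and 2 genes of the list were called in every fit without 1 pool or library. The remaining tested gene, COL2A1 (ENSDARG00000011407), for the cartilage collagen, did not exceed 1.78 TPM in any library.

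Genes for folding and modifying procollagen in the endoplasmic reticulum were mostly uncalled. Of 24 tested, 5 (20.8%) were called, all higher in pools 3 and 4, beside 4.73% of all genes tested. All 24 had a log2 difference above 0. The list median was 1.18, beside 2.95 for the collagen genes and -0.03 over all genes tested. PLOD2, a lysyl hydroxylase, had 16.47 to 21.71 TPM in pools 1 and 2, against 132.92 to 312.67 in pools 3 and 4. PPIB, a prolyl isomerase of the collagen-modifying complex, had 19.98 to 26.45 and 109.53 to 200.18 TPM. CREB3L2, a transcription factor of the secretory pathway, had 4.12 to 7.46 and 18.83 to 105.54 TPM. The collagen chaperone gene SERPINH1 (ENSDARG00000019949), named after its values were seen, had 47.33 to 66.89 and 128.63 to 206.32 TPM, and its log2 difference of 0.46 did not pass the threshold (limma adjusted p = 0.256). With the TPM as deposited 20 of the 24 were called, and without any 1 pool or library 2 to 4. Of all 13877 genes, 4007 were called with the TPM as deposited, 3311 of them with a higher mean in pools 3 and 4. That is the background for counts under this setting here and in the lists below.

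Of 12 tested genes for propeptide removal and crosslinking, 5 were called, all higher in pools 3 and 4 (list median 1.498; 9 called with the TPM as deposited). They included pcolcea, an enhancer of procollagen cleavage, with 4.14 to 16.41 against 77.87 to 220.63 TPM, the lysyl oxidase family gene loxl2a with 4.26 to 13.13 against 72.03 to 106.17, and adamts2a, a procollagen peptidase, with 2.99 to 8.38 against 38.23 to 108.70.

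Among 15 tested partners of the fibril surface, 10 were called, 9 of them higher in pools 3 and 4, with a list median of 2.26. Fibronectin (FN1, ENSDARG00000006526) had 94.78 to 213.93 TPM in pools 1 and 2, against 2616.02 to 4758.27 in pools 3 and 4, above any collagen chain in each library. SPARC, a collagen-binding matrix protein, had 30.63 to 53.76 and 741.11 to 1577.67 TPM, and the proteoglycan gene DCN 29.02 to 64.38 and 678.69 to 1393.60. The called gene lower in pools 3 and 4 was POSTN (ENSDARG00000043806), of periostin, with 6.11 to 17.63 against 0.03 to 19.91 TPM, while its paralog of the same symbol (ENSDARG00000104267), also called, had 8.89 to 18.07 against 125.74 to 287.87. Another of the called genes, COL12A1 (ENSDARG00000019601), reached 1 TPM in 1 library of pools 1 and 2 and passed the filter through pools 3 and 4.

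Of 8 tested collagen receptor genes, 2 were called, both higher in pools 3 and 4. With the TPM as deposited 5 were called, and 1 with no filter, with a prior variance without a trend, without pool 2, or without any 1 library of pools 1 and 2. They were the integrin beta gene ITGB1 (ENSDARG00000071863), with 10.42 to 19.67 against 80.79 to 143.41 TPM, and the collagen-binding kinase gene DDR2 (ENSDARG00000100693), with 0.12 to 1.02 against 10.42 to 20.72; DDR2 reached 1 TPM in 1 library of pools 1 and 2 and passed the filter through pools 3 and 4. Of 7 tested breakdown genes, 6 were called. MMP2, a gelatinase, had 17.06 to 23.99 against 178.99 to 272.94 TPM, and 4 more, including the inhibitor genes TIMP2 (ENSDARG00000075261 and ENSDARG00000061226), were also higher in pools 3 and 4. The collagenase gene mmp13a was the 1 called in the other direction, with 2.14 to 7.27 TPM in pools 1 and 2, against 0 to 2.67 in pools 3 and 4. It reached 1 TPM in 1 library of pools 3 and 4 and so passed the filter through pools 1 and 2.

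Genes of TGF-beta signalling, a known inducer of collagen I, were mostly uncalled. Of 11 tested, 1 was called, CCN2 (ENSDARG00000042934), a matricellular target of the pathway, with 6.69 to 27.31 against 65.69 to 137.62 TPM, and the list median was 0.24. The ligand gene TGFB3, the highest of the list, had 50.07 to 77.79 against 66.30 to 135.45 TPM, a scaled log2 difference of -0.51 short of the threshold (limma adjusted p = 0.240). With the TPM as deposited 6 of the 11 were called, and none under 6 of the other alternatives. Between the labelled sorts none of the genes of the 7 lists was called; the member of highest mean TPM in each had log2 differences from -0.04 for TGFB3 to 1.04 for col5a3a, and list medians ran from -0.19 for TGF-beta signalling to 0.49 for the fibril surface.

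**Figure D4:**
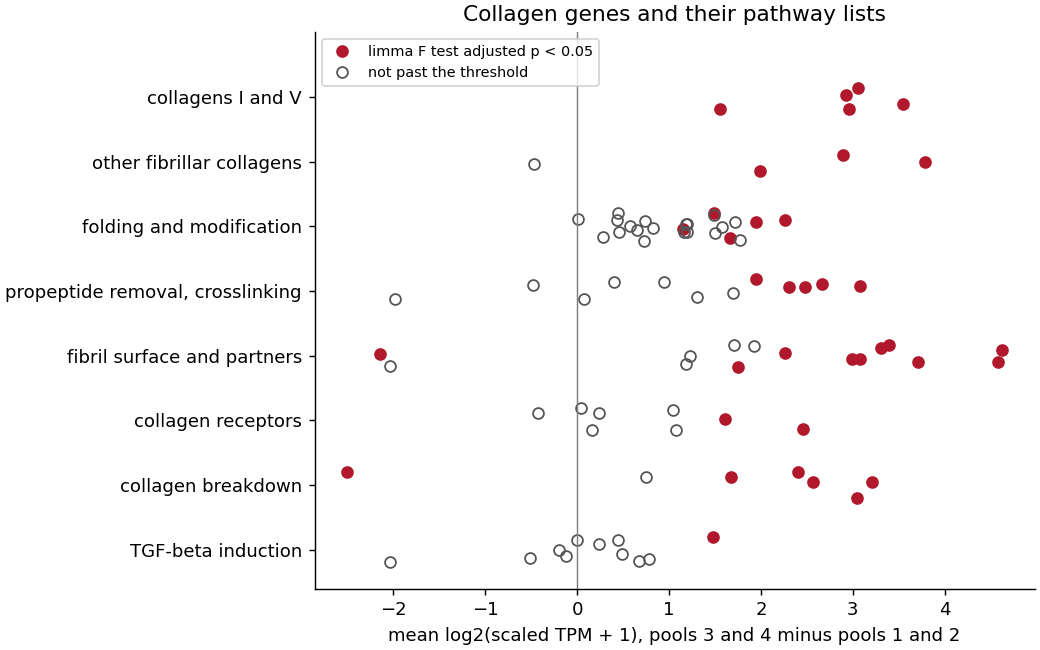
Log2 differences of pools 3 and 4 minus pools 1 and 2, on the scale of log2(scaled TPM + 1), for the tested collagen I and V genes and 7 lists of related genes; filled points passed limma's F test among pools and open points did not. The 5 collagen genes lie between 1.55 and 3.55, the folding genes between 0.01 and 2.26, and the TGF-beta genes on both sides of 0 with 1 filled point.

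Genes with the pattern most like the collagens over the 8 libraries were sought among the 4674 genes with a mean of at least 10 TPM, by Pearson correlation with the mean of the 5 centred log2 profiles. The 8 with the highest values were a second fibronectin gene (FN1, ENSDARG00000019815; r = 0.997), glis2a, SEMA3B, LRP1, SPARC, emilin1b, LAMB1 and the epicardial transcription factor gene TCF21 (r = 0.994). All had r of at least 0.994, but 256 genes (5.48%) had 0.95 or more, and the libraries form separate pairs of pools, so that r mainly reflects that gap. Among the collagen genes, col1a1b and col1a2 were closest to each other (r = 0.996), while col5a1 was closest to col1a1b (r = 0.993), col1a1a to col5a1 (r = 0.977) and col5a2a to col5a1 (r = 0.974). With the pool means removed from the values, col1a2 stayed close to col1a1b (r = 0.979) and to col5a1 (r = 0.961), whereas col1a1a had r of 0.621 with col1a2 and of 0.280 with col5a2a. These are descriptions over 8 libraries that share pools. With the pool means removed, r rests on the differences between the labelled sorts in 4 pools. For col1a2, col1a1b and col5a1 that of pool 1 was the largest, at 1.51, 1.73 and 1.12.

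Markers of other cells moved with the same pools. Of all 13877 genes tested, 656 were called with a higher mean in pools 3 and 4 and 1131 with a lower one. Of 7 fibroblast markers other than collagens that were tested, 5 were called higher in pools 3 and 4, and the summed TPM of that list was 81.1 to 149 in pools 1 and 2 against 2316 to 4278 in pools 3 and 4. The list shares DPT, SPARC, LUM and DCN with the fibril surface list. DPT, SPARC and DCN are among the 5 called, so these lists are not separate. All 9 tested cardiomyocyte markers were called lower in pools 3 and 4, with sums of 22334 to 31668 and 1610 to 4285 TPM. Of 7 endothelial markers 6 were called lower, with sums of 193 to 336 and 66.0 to 121, and all 4 tested erythrocyte markers, with sums of 686 to 1756 and 6.31 to 32.3. Of 7 tested smooth muscle and pericyte markers 2 were called higher in pools 3 and 4 and 1 lower, with sums of 67.9 to 94.2 and 440 to 726. The 2 higher ones are both listed as TAGLN. Of the sums, 37.29 to 66.51 and 399.17 to 611.02 TPM came from 1 of them (ENSDARG00000033466). The lower one was MYH11 (ENSDARG00000009782), and acta2, RGS5, CSPG4 and CNN1 were not called. Of 7 epicardial markers 4, wt1a among them, were called higher and 2, ALDH1A2 and podxl, lower. The sums of that list were 151 to 313 and 241 to 487.

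Among blood cell lists, 2 of 8 tested macrophage markers were called, both lower in pools 3 and 4 (sums of 26.3 to 41.1 and 13.7 to 28.9 TPM), and 1 of 2 thrombocyte markers, also lower (9.43 to 13.7 and 3.22 to 6.48). The 1 tested gene of the neutrophil list, nccrp1, was called higher (3.56 to 7.15 and 13.33 to 54.16 TPM). Whether nccrp1 marks neutrophils in these libraries was not tested. The untested lyz of that list had 0.40 to 8.71 TPM in pools 1 and 2. It had 4.96 in the positive-labelled library of pool 4 and 0 in the other 3 libraries of pools 3 and 4. The 1 tested lymphocyte marker was not called (list sums of 2.43 to 6.25 and 0.610 to 30.9). Of 4 tested keratinocyte and osteoblast markers 1 was called higher, runx2b, with 0 to 0.51 and 6.57 to 21.09 TPM. The keratinocyte gene krt4 was not called, with 58.39 to 89.57 and 143.14 to 472.91 TPM and a scaled log2 difference of 0.36 (limma adjusted p = 0.860). Of the called markers, runx2b, TIE1, hbaa2, alas2, MFAP4, LCP1 and FERMT3 reached 1 TPM in at most 1 library of the pools where they were low, and so passed the filter through the other pools. No matched marker was listed at 0 in every library. The part of these cell types in the collagen differences was not tested.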

How the data were processed

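Polyadenylated transcripts of sorted cells were sequenced in 8 libraries. Per the labels' protocols, 0.2 to 0.6 ng of RNA went through 2 rounds of library amplification, and single reads of 60 bases were made. Per the submitters' processing notes, CASAVA 1.8.2, cutadapt and RSEM 1.2.25 were used with genome build Zv9; which aligner and annotation release is not given in the sources used here. In the deposited table the unit is TPM, and each column sums to 1000000 within rounding.

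A filter kept 13877 genes that reached 1 TPM in 4 libraries or more. Scale factors came from trimmed log ratios without weights, leaving out 30% of ratios and 5% of abundances at each end. The test was limma's (limma 3.58.1, R 4.3.3), applied to log2(scaled TPM + 1) with pool and labelled sort as terms, a trended prior variance and Benjamini-Hochberg adjustment. The series design states pairing, and pool numbers were taken to give the pairs. Deviations of same-numbered libraries correlated across genes with r of 0.403 to 0.537. Those of pools 1 and 2, or of pools 3 and 4, with different numbers had r of 0.382 to 0.552. These ranges overlap, so the correlations do not set same-numbered libraries apart. Nothing beyond the pool number says how far apart the sets of hearts were. Python 3.11.15 with pandas 2.3.3 handled the tables. The scripts were tested on simulated data.

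The collagen genes, gene lists and the split of pools were chosen with earlier results of these data known. Named genes are the 6 collagen genes, up to 3 called genes of highest mean TPM per list and the 8 genes most alike in pattern. For the labelled sorts the gene of highest mean TPM in each list is named as well. COL2A1, SERPINH1, POSTN, mmp13a, ALDH1A2, podxl and the smooth muscle and pericyte markers were named after their values were seen. Alternatives covered scaling, filter, pseudocount, variance estimation, the replicate block and leaving out pools or libraries. RefSeq names come from assembly GRCz12tu, used for names alone.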

Additional observations from a re-analysis of the deposited data

Results flagged for a closer look

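In the positive-labelled libraries, col5a2b was at 0.59 TPM in pool 3 and listed at 0 in the other pools. With 3 of 4 values at 0, any value above 0 in the remaining library would have been marked, and this one lies below the 1 TPM of the filter, so the mark says no more than that. Of 20 sets of 4 libraries checked in this way (6 genes and 4 ratios in each labelled sort), it was the 1 marked, and chance alone marks about 1 set in 20.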

How the results depend on the processing

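Between the labelled sorts none of the 5 collagen genes was called under any alternative run, and limma called 0 genes in all except 6 fits that left out a pool or a library; over all such fits it called 0 to 3. Without the replicate block limma also called 0, and the adjusted p of each of the 5 genes was 0.999. The col1a1a difference turned to -0.00021 with the TPM as deposited, and ran from -0.047 to 0.42 with a pool or library left out. Among pools limma called 1787 genes, against 4007 with the TPM as deposited, 884 with no filter on low values and 948 to 1408 with a pool or library left out. The calls of the 5 collagen genes held in all of these, and col5a2a alone lost its call under 1 setting.

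With a pool left out, the log2 difference between sorts ran from 0.37 to 0.55 for col1a2 over the alpha1 chains. It ran from 0.39 to 0.80 for col1a1b over col1a1a, from -0.28 to 0.019 for the col5a2 chains over col5a1, where it turned to 0.019 without pool 1, and from -0.26 to 0.14 for collagen V over collagen I, where it turned to -0.26 without pool 3. Without the replicate block, col1a2 over the alpha1 chains had an exact permutation p of 0.0286 (4 against 4, two-sided) and 0.114 adjusted over 4 ratios. The unadjusted value is the smallest that 4 against 4 allows. It was fixed once the labelled sorts were seen not to overlap, and it sets the stated pairing aside, so it adds nothing to that description. No ratio of col5a2b to col5a2a was tested, since col5a2b was listed at 0 in 7 libraries. The unknown depth leaves the counting error of col5a2b and of the low values in pools 1 and 2 unmeasured.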
